A study of Mus musculus with 15 samples.

Results

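The mitochondrial genome of the mouse carries 37 genes, and all 37 were found among the 54752 genes of the count table by matching Ensembl identifiers to symbols that begin with mt-. They comprise 13 genes for subunits of the respiratory chain and ATP synthase, 2 ribosomal RNAs (rRNAs) and 22 transfer RNAs (tRNAs). They were followed through 15 RNA-seq libraries of tubules dissected from kidneys of wild-type mice (WT) and of mice lacking claudin-10a, labelled Cldn10a KO. The 4 groups were proximal convoluted tubule (PCT) WT (n = 4), PCT KO (n = 3), distal convoluted tubule (DCT) WT (n = 4) and DCT KO (n = 4). Per the labels, 10 PCTs or roughly 20 DCTs of a kidney were pooled. The labels do not say that each library came from its own animal, so p-values measure only the spread between these samples, which may be technical. The labels give no age, sex or strain and do not say how the knockout was made.

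Mitochondrial DNA is a small circle that is transcribed from both strands as long precursors. These precursors are cut mostly at the tRNAs that punctuate them, which releases rRNAs, messenger RNAs and tRNAs. The coding genes supply core subunits of complexes I (mt-Nd genes), III (mt-Cytb) and IV (mt-Co genes) and of ATP synthase (mt-Atp genes), and the other subunits come from the nucleus. Both convoluted tubules are rich in mitochondria, since the ATP they make drives the sodium pump that powers salt reabsorption.

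The genes lie so close together that neighbours share bases, which matters because the library kit, Nextera XT, does not mark the strand of a read. Of the 37 genes, 9 neighbouring pairs overlapped in GENCODE M21 on GRCm38, by 1 to 43 bases. The 3 overlaps between coding genes that span more than 1 base are shown on the plus strand with 10 flanking bases on each side, with the shared bases in capitals.
mt-Atp8 and mt-Atp6, chrM:7917-7979: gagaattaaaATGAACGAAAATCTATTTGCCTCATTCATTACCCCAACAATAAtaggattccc
mt-Nd4l and mt-Nd4, chrM:10157-10183: acctactacaATGCTAAaaattattct
mt-Nd5 and mt-Nd6, chrM:13542-13575: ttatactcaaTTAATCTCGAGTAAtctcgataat
The first overlap holds 43 bases, the second 7 and the third 14. In the first 2 pairs both genes lie on the plus strand, while mt-Nd6 is the only coding gene on the minus strand. Reads within these bases cannot be assigned to 1 gene by position, and without strand this also holds for mt-Nd5 and mt-Nd6.

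The tRNA genes with the highest and lowest counts are shown next, 5′ to 3′ on the strand of each gene. The capitals mark the 3 bases of mt-Ts1, at chrM:6870-6872, that lie opposite the end of mt-Co1. The last 30 bases of mt-Co1 are shown under it with the same 3 positions in capitals.
mt-Ts1, minus strand, chrM:6870-6938: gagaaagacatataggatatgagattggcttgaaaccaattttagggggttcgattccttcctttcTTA
mt-Co1, plus strand, chrM:6843-6872: gaggaaccaacctatgtaaaagtaaaaTAA
mt-Tp, minus strand, chrM:15356-15422: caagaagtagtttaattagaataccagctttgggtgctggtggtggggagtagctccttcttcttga
mt-Te, minus strand, chrM:14071-14139: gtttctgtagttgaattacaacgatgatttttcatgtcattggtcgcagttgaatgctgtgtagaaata
mt-Ts2, plus strand, chrM:11613-11671: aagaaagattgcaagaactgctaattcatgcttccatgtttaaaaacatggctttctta
mt-Th, plus strand, chrM:11546-11612: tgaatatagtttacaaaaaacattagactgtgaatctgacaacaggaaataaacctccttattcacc

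The libraries held 28729339 to 51764746 counts. Cldn10, the targeted gene, had 541, 1382, 1514 and 771 counts in the PCT WT libraries and 0 in all 3 PCT KO libraries. In DCT it had 8, 3, 4 and 22 counts in WT and 0, 12, 24 and 0 in KO, so it does not check the DCT labels at this depth. All 12 proximal markers were higher in PCT and all 12 distal markers were higher in DCT, in both genotypes. The proximal list summed to 4769 to 6384 scaled CPM, a level relative to library size, in PCT and 7.69 to 16.8 in DCT.

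Mitochondrial transcripts made up most of every library. Their share of all counts was 73.8%, 72.9%, 67.3% and 75.4% in PCT WT replicates 1, 2, 3 and 6, and 70.6%, 76.3% and 68.3% in PCT KO replicates 4, 5 and 7. It was 81.9%, 80.3%, 80.2% and 76.1% in DCT WT replicates 1 to 4, and 80.1%, 81.9%, 82.9% and 80.2% in DCT KO replicates 5 to 8. The segments did not overlap within WT or within KO, while the genotypes overlapped in both segments. The group means were 72.4% ± 3.52 (SD, n = 4) in PCT WT, 71.8% ± 4.12 (SD, n = 3) in PCT KO, 79.6% ± 2.47 (SD, n = 4) in DCT WT and 81.3% ± 1.35 (SD, n = 4) in DCT KO.

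**Figure D1:**
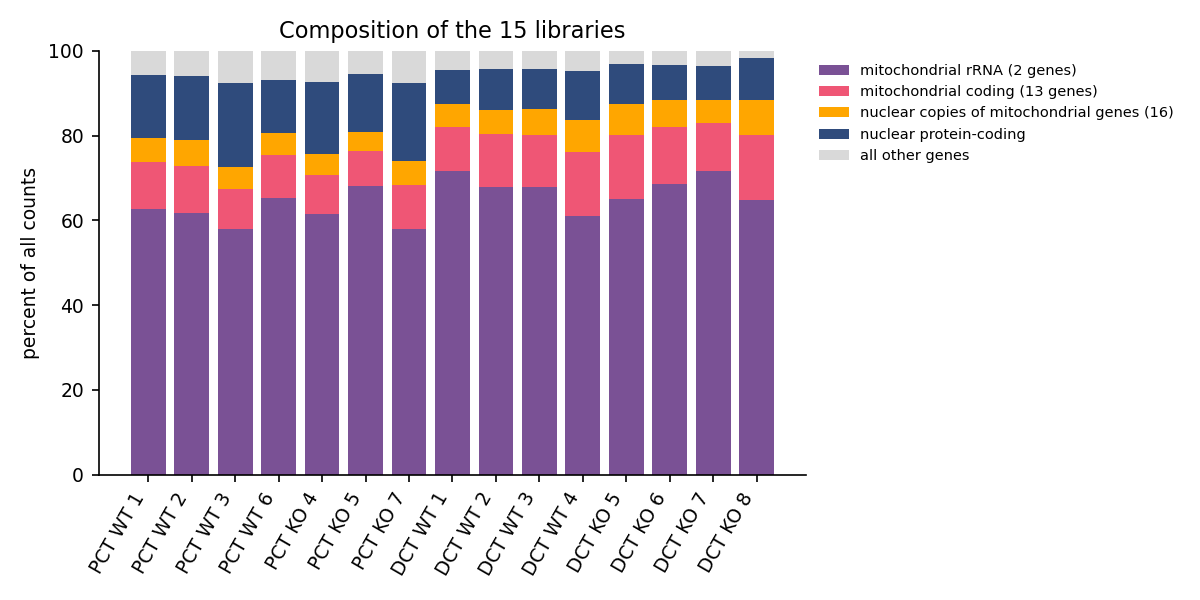
Share of all counts (percent, vertical axis) by kind of gene in each of the 15 libraries (horizontal axis). The 2 mitochondrial rRNAs take 57.8 to 71.6% of counts, the 13 coding genes 8.32 to 15.4% and nuclear protein-coding genes 8.02 to 19.7%.

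The 2 rRNAs, the structural RNAs of the mitochondrial ribosome, dominated this share with 57.8 to 71.6% of counts. The 13 coding genes took 8.32 to 15.4%, and the 22 tRNAs together took 0.00930 to 0.0166%. The rRNA to coding count ratio spread widely within groups. It was 5.62, 5.50, 6.12 and 6.46 in PCT WT, 6.83, 8.17 and 5.51 in PCT KO, 6.96, 5.47, 5.56 and 4.08 in DCT WT, and 4.32, 5.11, 6.32 and 4.19 in DCT KO. These values overlapped between every pair of groups compared.

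The balance of the 2 rRNAs separated the segments. mt-Rnr1, the small-subunit rRNA, had 0.933, 0.899, 0.878 and 0.909 counts per count of mt-Rnr2, the large-subunit rRNA, in PCT WT and 0.846, 0.938 and 0.909 in PCT KO. In DCT the ratio was 0.668, 0.710, 0.646 and 0.624 in WT and 0.716, 0.735, 0.685 and 0.788 in KO. Every PCT library lay above every DCT library. The mean ratio was 0.905 ± 0.0231 (SD, n = 4) in PCT WT and 0.662 ± 0.0369 (SD, n = 4) in DCT WT.

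The coding transcripts were also set against the nuclear protein-coding counts of the same library, which needs no scaling between libraries. This ratio was 0.750, 0.742, 0.479 and 0.806 in PCT WT and 0.530, 0.609 and 0.566 in PCT KO. In DCT it was 1.28, 1.27, 1.30 and 1.30 in WT and 1.60, 1.63, 1.41 and 1.53 in KO. All 4 DCT KO libraries lay above all 4 DCT WT libraries, while the PCT genotypes overlapped through PCT WT replicate 3, the lowest of all 15. The mean was 1.28 ± 0.0139 (SD, n = 4) in DCT WT and 1.54 ± 0.0978 (SD, n = 4) in DCT KO, against 0.694 ± 0.146 (SD, n = 4) in PCT WT. The ratio depends on both of its parts. Coding genes took 10.5% of counts in PCT WT and 12.5% in DCT WT, with overlap. In PCT KO they took 9.28% and in DCT KO 13.8%, without overlap. Nuclear protein-coding genes took 15.6% in PCT WT and 9.71% in DCT WT, without overlap. They took 16.4% in PCT KO and 8.94% in DCT KO, also without overlap. On both shares the DCT genotypes overlapped. In these pools, fewer cells with many mitochondria, less mitochondrial RNA per cell and more nuclear messenger RNA cannot be told apart.

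**Figure D2:**
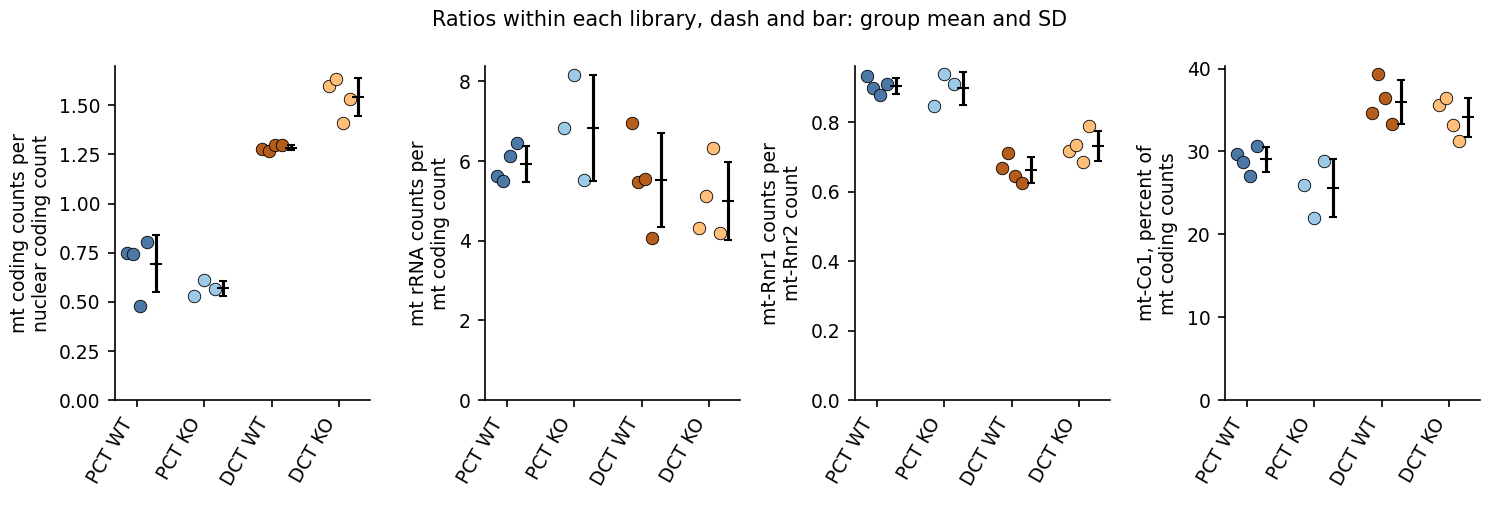
Ratios of counts within each library (vertical axes, no unit except the last panel in percent) in the 4 groups, with points for libraries and a dash and bar for the group mean and SD. The mt-Rnr1 to mt-Rnr2 ratio is 0.846 to 0.938 in PCT and 0.624 to 0.788 in DCT, and the coding ratio of DCT KO, 1.41 to 1.63, lies above that of DCT WT, 1.27 to 1.30.

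Levels of different genes were compared per length, as scaled CPM per kilobase. CPM were scaled by trimmed means of M values, a method that matches libraries on the bulk of their genes. The rRNAs were far above the coding genes in all groups. In DCT WT mt-Rnr1 stood at 319670 ± 66721 scaled CPM per kilobase (SD, n = 4) and mt-Rnr2 at 290948 ± 56102 (SD, n = 4). The ranges of the 2 rRNAs overlapped between libraries, but within each of the 15 libraries mt-Rnr1 was the higher per kilobase. In DCT WT replicates 1 to 4 the values were 396923, 317814, 329624 and 234320 for mt-Rnr1 and 358788, 270113, 308071 and 226818 for mt-Rnr2. Among coding genes the order in DCT WT began with mt-Co1, the catalytic subunit of complex IV, at 32355 ± 1956 (SD, n = 4), and mt-Co2, which receives electrons from cytochrome c, at 19603 ± 2011 (SD, n = 4). The ranges of these 2 genes did not overlap in DCT WT.

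The middle of the order held mt-Co3 (13578 ± 3412), mt-Nd1 (12738 ± 781), mt-Atp6 (11868 ± 1376), mt-Cytb (11169 ± 636) and mt-Nd4 (9835 ± 1267) in scaled CPM per kilobase (SD, n = 4). The ranges of neighbours in this order overlapped. mt-Nd6, the complex I subunit encoded on the minus strand, stood at 3504 ± 867 (SD, n = 4). mt-Nd3, another complex I subunit, was the lowest coding gene in all 4 groups, at 1100 ± 231 in DCT WT (SD, n = 4) and 900.1 ± 29.9 in PCT WT (SD, n = 4). The plus-strand coding genes start as parts of 1 precursor, yet mt-Co1 was many times above mt-Nd3 per length.

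**Figure D3:**
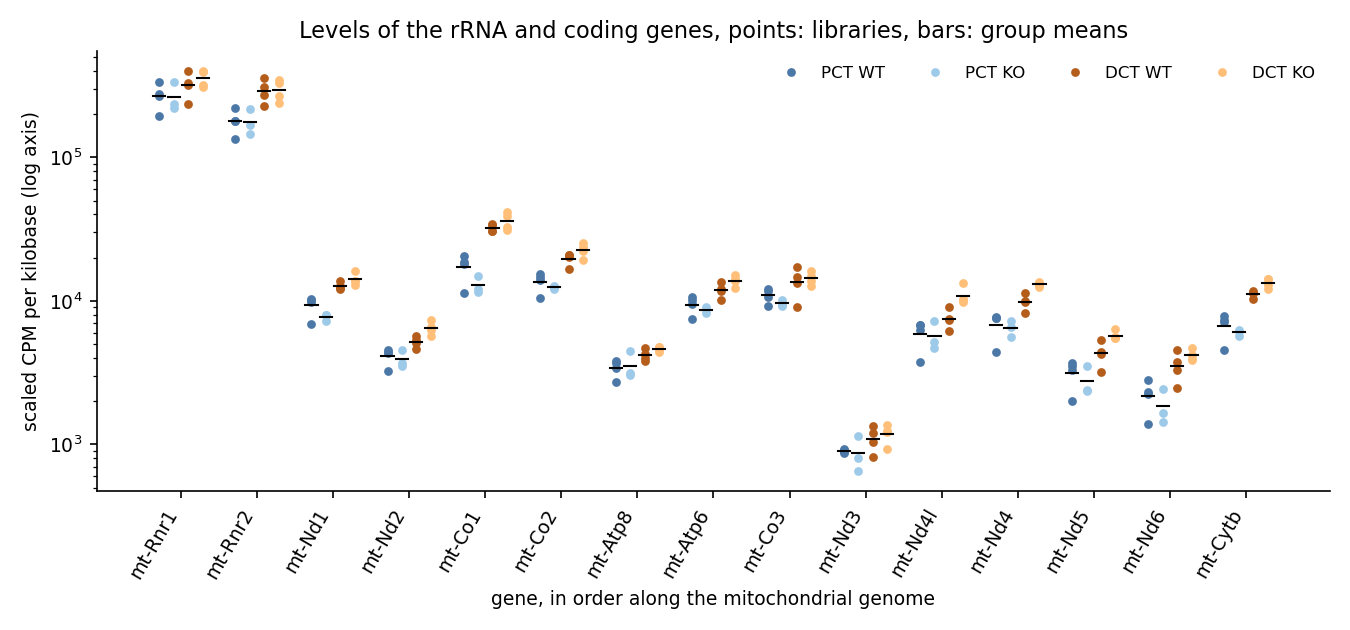
Scaled CPM per kilobase (log axis) of the 2 rRNA and 13 coding genes, in order along the genome, with 1 point per library and a bar at each group mean. mt-Co1 has the highest mean of the coding genes and mt-Nd3 the lowest in each group, with the ranges of mt-Co1 and mt-Co2 overlapping in PCT WT and PCT KO.

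Near-identical nuclear copies limit how exactly these levels can be read. A search of the other transcripts against the mitochondrial ones found 16 nuclear genes with a match of at least 50 bases at 90% identity or more, all annotated as pseudogenes, and they took 4.63 to 8.13% of counts. Gm28661, a copy of mt-Co2 on chromosome 1 (24614885 to 24615565, minus strand), matched it at 100% over 681 bases and had 1.03 to 1.04 counts per mt-Co2 count in the 15 libraries. Gm28437, a copy of mt-Co3, had 1.01 counts per mt-Co3 count in all of them, and Gm29216, which matches part of mt-Co1, had 0.299 to 0.341. Gm10925, which matches mt-Atp6 at 100% over 678 bases, had more counts than its source, 1.40 to 1.46 per mt-Atp6 count. The copy of mt-Nd3, Gm28438, differs from it by T3C over 345 bases, counted from 1 at the 5′ end of the gene, and its counts were 1.03 to 1.05 times those of mt-Nd3. The first 30 bases of both are shown with this position in capitals.
mt-Nd3, plus strand, chrM:9459-9488: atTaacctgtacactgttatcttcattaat
Gm28438, minus strand, chr1:24613090-24613119: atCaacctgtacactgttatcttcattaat
How reads that fit both places were counted is not stated in the labels or file headers, so levels of genes with such copies are uncertain.

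The tRNAs gave very few counts, most of them on a few minus-strand genes. The 8 tRNAs on the minus strand held 94.7 to 97.2% of all mitochondrial tRNA counts, although the plus strand carries 14. mt-Ts1, the tRNA for serine that lies against the end of mt-Co1, had 954 to 4534 counts per library, and mt-Tp, the tRNA for proline at the other end of the gene map, had 1142 to 2079. mt-Te, the tRNA for glutamate between mt-Nd6 and mt-Cytb, had 133 to 638, and mt-Tc had 58 to 238. The highest plus-strand tRNA, mt-Tl1, which follows mt-Rnr2, had 23 to 119 counts. The minus-strand mt-Ta and mt-Tq had only 11 to 66 and 20 to 86, so not every minus-strand tRNA lay above the plus-strand ones. mt-Ts2 and mt-Th, both shown above, had 0 to 4 counts, within which no difference between groups was detectable. The counts do not show whether reads on any tRNA gene came from the cut tRNA or from a longer precursor.

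Of the plus-strand tRNAs, mt-Td, mt-Tr, mt-Th, mt-Ts2 and mt-Tt passed the filter on low counts in none of the comparisons, and mt-Tk passed in 1. The filter asked for about 10 counts in a number of libraries equal to the smaller group. The minus-strand tRNAs lie opposite the plus-strand precursor, and counts on them cannot be told apart from reads of that precursor without strand. mt-Ts1 had 1.07 to 3.31 counts per 1000 mt-Co1 counts. All minus-strand tRNAs passed the filter in every comparison.

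**Figure D4:**
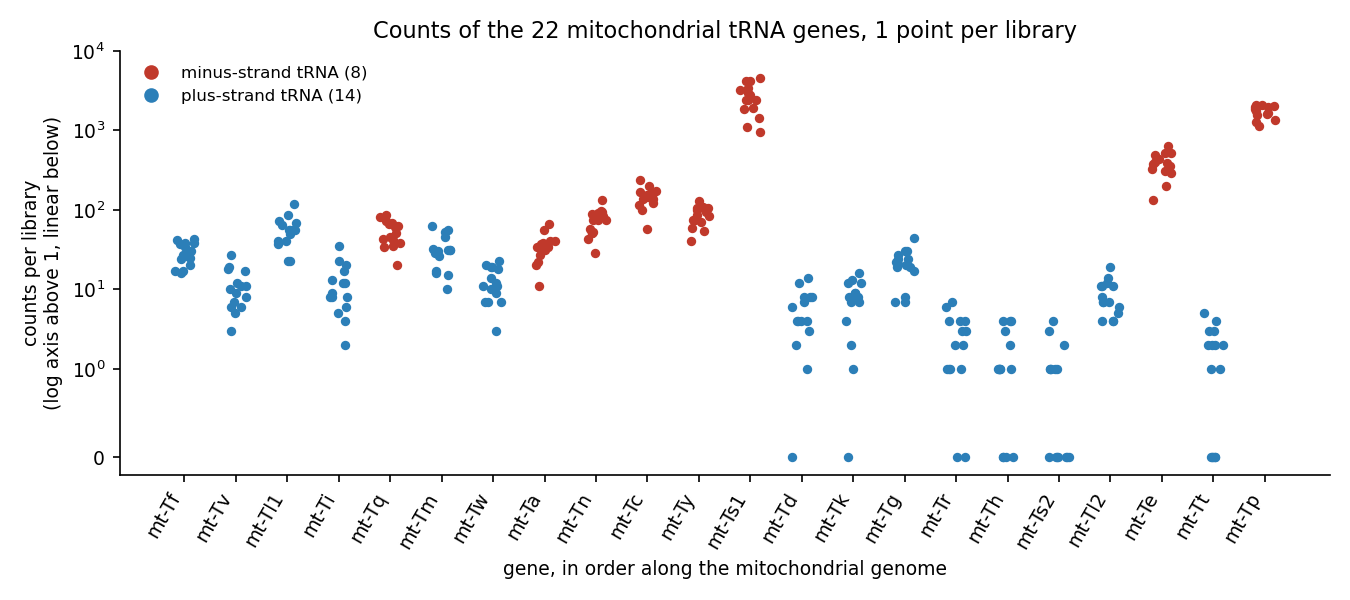
Counts per library (log axis above 1, linear below) of the 22 tRNA genes in order along the genome, with 1 point for each of the 15 libraries, red for the minus strand and blue for the plus strand. mt-Ts1 and mt-Tp lie near or above 1000 counts, while mt-Ts2 and mt-Th do not exceed 4.

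The effect of the knockout in PCT was tested across all genes with limma, and p-values were adjusted over all genes tested by the Benjamini-Hochberg method. None of the 29 mitochondrial genes tested was called at an adjusted p under 0.05, against 22 of 13229 genes in all, or 0.166%. At an unadjusted p under 0.05 there were 1 mitochondrial gene and 976 genes in all. Of the 29, 28 had a log2 difference below 0, with a median of -0.26, against -0.01 over all genes tested.

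The difference of smallest p was that of mt-Tn, the tRNA for asparagine. Its level was 1.88, 1.74, 1.84 and 1.71 scaled CPM in WT and 0.808, 1.29 and 0.948 in KO. The groups did not overlap, and the log2 difference was -0.84 ± 0.30 (SE), with a limma adjusted p of 0.521. mt-Ty, the tRNA for tyrosine from the same cluster, was at 2.15, 2.18, 1.42 and 2.12 scaled CPM in WT and 1.11, 1.34 and 1.30 in KO. Here too every KO library was below every WT library, and the log2 difference was -0.62 ± 0.30 (SE, adjusted p = 0.691 by limma). mt-Tf, the first gene on the map, was the only other mitochondrial gene whose groups did not overlap, at 0.785 to 0.978 in WT and 0.661 to 0.671 in KO. It had only 38 to 43 counts per library in WT and 24 to 30 in KO. Its log2 difference of -0.32 ± 0.36 (SE, adjusted p = 0.876 by limma) was smaller than its SE. These 3 of 29 genes compare with 3.54% of all genes that were lower in KO without overlap.

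mt-Co1 had the third-smallest p among the mitochondrial genes in PCT. It stood at 28995, 28047, 17510 and 31693 scaled CPM in WT and 18716, 17852 and 23056 in KO. Replicate 3 was below all 3 KO libraries and the other WT libraries were above them. The log2 difference was -0.40 ± 0.20 (SE, adjusted p = 0.710 by limma). mt-Nd1, a complex I subunit, was at 9748, 9457, 6582 and 9887 scaled CPM in WT and 6909, 7641 and 7647 in KO, with the same single low WT library and a log2 difference of -0.26 ± 0.17 (SE, adjusted p = 0.774 by limma). Over the 13 coding genes the log2 differences ran from -0.40 to 0.03, with a median of -0.13, and both rRNAs lay within 0.03 of 0. Without PCT WT replicate 6 and PCT KO replicate 7, the 2 libraries with lower library numbers in the labels, the median over the mitochondrial genes was -0.07, and without PCT WT replicate 3 it was -0.42. The 8 endothelial markers summed to 11.4 to 23.0 scaled CPM in PCT WT and 19.5 to 35.0 in PCT KO, and 3 had an unadjusted limma p under 0.05. Among the 12 proximal markers 5 had such a p, and 5 of the 12 had a log2 difference above 0, with a median of -0.07. No marker of these 2 lists was called, and the part of such cells in the mitochondrial values was not tested.

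In DCT no gene was called between KO and WT, 0% of 12968, and hence none of the 30 mitochondrial genes tested, with limma. At an unadjusted p under 0.05 there were 925 genes in all and 8 of the mitochondrial ones. All 13 coding genes had a log2 difference above 0, from 0.12 to 0.54 with a median of 0.23, where all genes tested had a median of -0.01. The 3 smallest p among the mitochondrial genes belonged to mt-Nd4l, mt-Nd4 and mt-Nd5, which lie on the same stretch of the genome and encode membrane subunits of complex I. Nuclear copies on chromosome 1 match mt-Nd4l at 100% over 294 bases (Gm10222) and mt-Nd4 at 100% over 876 bases (Gm28439). Gm10222 had 1.01 counts per mt-Nd4l count and Gm28439 0.538 to 0.600 per mt-Nd4 count, so the levels of both genes are uncertain.

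mt-Nd4l stood at 1827, 2170, 2223 and 2708 scaled CPM in WT and 3059, 2928, 2998 and 3948 in KO. Every KO library was above every WT library, with a log2 difference of 0.54 ± 0.13 (SE) and rank 10 by p among all genes (unadjusted p = 0.000567, limma adjusted p = 0.582). mt-Nd4 stood at 11320, 13500, 13817 and 15574 scaled CPM in WT and 18715, 17862, 17183 and 18082 in KO. Its groups did not overlap either, and the log2 difference was 0.41 ± 0.12 (SE, adjusted p = 0.662 by limma). mt-Nd5 was at 5868, 7768, 8097 and 9685 scaled CPM in WT and 11532, 10175, 10049 and 9980 in KO, again without overlap, with a log2 difference of 0.43 ± 0.13 (SE, adjusted p = 0.670 by limma).

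The other mitochondrial genes whose DCT groups did not overlap were mt-Cytb, the complex III subunit, and mt-Tl1. mt-Cytb was at 11730, 12951, 13414 and 13015 scaled CPM in WT and 16292, 16259, 13855 and 14860 in KO, a log2 difference of 0.26 ± 0.11 (SE, adjusted p = 0.681 by limma). mt-Tl1, the tRNA for leucine, was at 0.793, 0.938, 1.06 and 1.18 scaled CPM in WT and 1.44, 1.63, 1.59 and 2.75 in KO, a log2 difference of 0.85 ± 0.32 (SE, adjusted p = 0.670 by limma). In all, 5 of 30 mitochondrial genes were higher in every KO library than in every WT library, against 2.01% of all genes. They share 1 genome, precursor and set of libraries, so they are not 5 separate observations.

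Further differences in DCT included mt-Nd2 at 0.32 ± 0.12 (SE, adjusted p = 0.670 by limma) and mt-Te at 0.54 ± 0.20 (SE, adjusted p = 0.670 by limma), both log2 values with overlapping groups. mt-Te was at 4.59, 6.59, 8.02 and 11.0 scaled CPM in WT and 11.5, 11.3, 9.28 and 11.1 in KO. The WT libraries spread over a wider range than the KO libraries. The rRNAs differed less, with log2 differences of 0.17 ± 0.14 for mt-Rnr1 and 0.03 ± 0.14 for mt-Rnr2 (SE). With no filter on low counts, mt-Nd4l and mt-Nd4 passed the limma test with adjusted p of 0.0335 and 0.00271, and in all other settings tried no mitochondrial gene did.

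The summed level of 8 endothelial markers also differed between the DCT genotypes, but was lower in KO. It was 49.5 to 65.6 scaled CPM in DCT WT and 40.8 to 45.0 in DCT KO, without overlap, and none of the 8 was called. Of the endothelial markers none was at 0 in either group. All 8 had a log2 difference below 0, with a median of -0.41. The 11 markers of the thick ascending limb, the neighbouring segment, summed to 831 to 1340 scaled CPM in WT and 908 to 1228 in KO. Of the 10 that were tested, 8 had a log2 difference above 0, with a median of 0.19, and 3 had an unadjusted p under 0.05. Slc12a1, the salt cotransporter of that segment, was at 12.2 to 77.3 scaled CPM in DCT WT and 59.8 to 125.4 in DCT KO, with overlap and a log2 difference of 1.02 ± 0.35 (SE, adjusted p = 0.670 by limma). Umod, which encodes uromodulin, was at 0.52 ± 0.18 (SE), and Ptger3, a prostaglandin receptor, at 0.80 ± 0.27 (SE) on the log2 scale, both with overlapping groups and a limma adjusted p of 0.670. The 7 intercalated cell markers summed to 172 to 239 scaled CPM in WT and 110 to 206 in KO, and none of the 7 had a log2 difference above 0. None of these markers was called. The part of such cells in the mitochondrial difference was not tested.

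**Figure D5:**
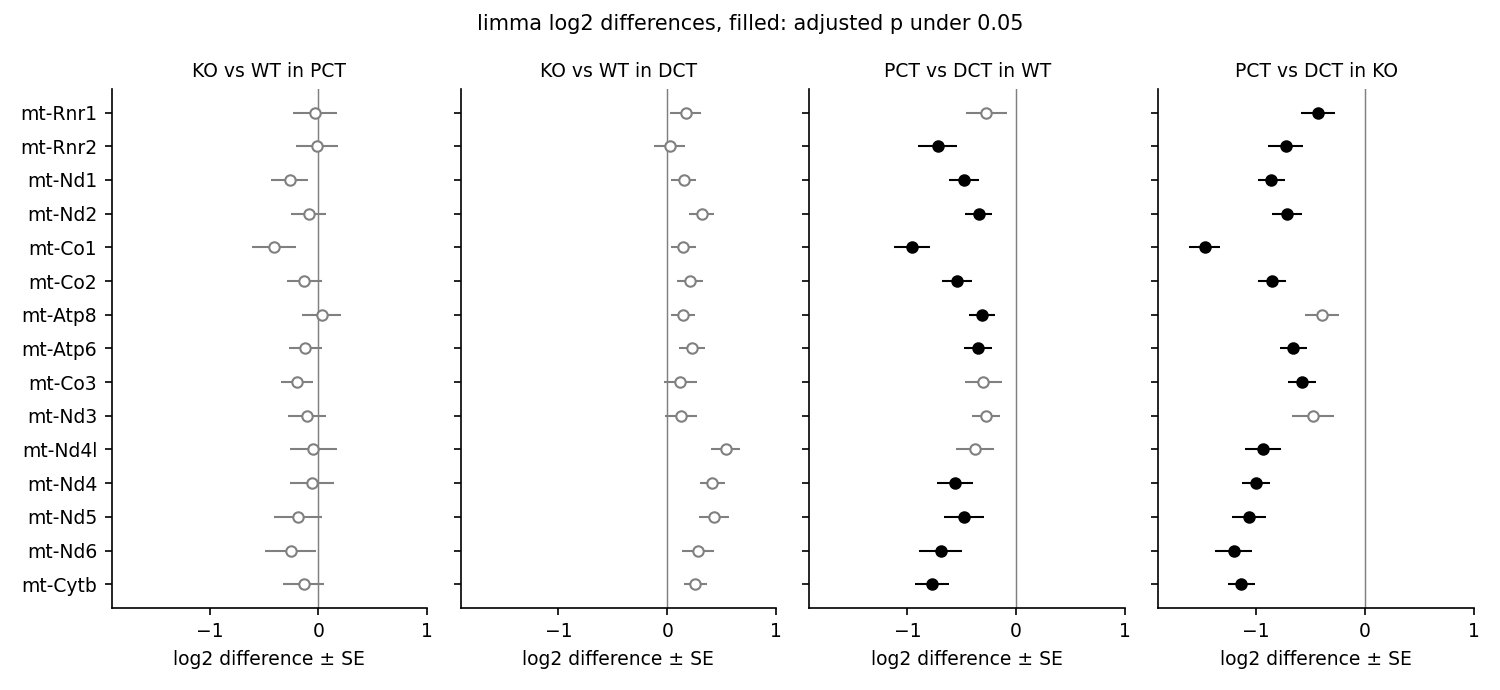
Log2 differences with SE (horizontal axes) of the 15 rRNA and coding genes in 4 comparisons, filled where the limma adjusted p was under 0.05. No gene is filled in the 2 knockout comparisons, and filled genes between segments all lie below 0, lower in PCT.

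Between the tubule segments many mitochondrial genes passed the test. In WT, 13 of 31 mitochondrial genes tested were called between PCT and DCT, or 41.9%, against 48.7% of all 13616 genes, so their share was near the background. Their direction was uneven: 12 were lower in PCT, where 25.1% of all genes were called lower, and 1 was higher, where 23.6% were. The 12 were 10 of the 13 coding genes, mt-Rnr2 and mt-Ts1. Mitochondrial genes made up 67.3 to 82.9% of all counts, so total counts as library size set them largely against their own sum. With that library size the median of all genes moved from -0.02 to 0.37 on the log2 scale and 8 mitochondrial genes were called. Of these, 4 were lower in PCT (mt-Co1, mt-Ts1, mt-Cytb and mt-Rnr2) and 4 higher (mt-Tf, mt-Ti, mt-Tm and mt-Te).

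mt-Co1 differed most among the coding genes. It stood at 28995, 28047, 17510 and 31693 scaled CPM in PCT WT and 47198, 52626, 52580 and 47551 in DCT WT. All PCT libraries were below all DCT libraries, with a log2 difference of -0.95 ± 0.16 (SE, adjusted p = 0.000138 by limma). mt-Ts1, whose gene abuts mt-Co1 on the other strand, was at 49.2, 49.7, 27.0 and 41.6 scaled CPM in PCT WT and 65.7, 67.3, 86.5 and 88.6 in DCT WT. Its log2 difference was -0.93 ± 0.17 (SE, adjusted p = 0.000246 by limma), and both genes were also called lower with total counts as library size, at -0.55 and -0.51.

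mt-Cytb was at 8361, 8126, 5178 and 9042 scaled CPM in PCT WT and 11730 to 13414 in DCT WT, a log2 difference of -0.77 ± 0.15 (SE, adjusted p = 0.00053 by limma). mt-Rnr2 was at 284219, 282564, 210562 and 349426 in PCT WT and 567603, 427318, 487369 and 358826 in DCT WT, again without overlap, a log2 difference of -0.72 ± 0.18 (SE, adjusted p = 0.00289 by limma). mt-Rnr1 was not called in WT, at -0.27 ± 0.19 (SE, adjusted p = 0.246 by limma). The 2 rRNAs thus fell on different sides of the threshold, as their ratio within each library also differed between segments.

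Of the complex I genes, 5 of 7 were called lower in PCT WT, with log2 differences of -0.69 for mt-Nd6, -0.56 for mt-Nd4, -0.48 for mt-Nd1, -0.48 for mt-Nd5 and -0.34 for mt-Nd2. The genes of complex IV and ATP synthase that were called were mt-Co1, mt-Co2 at -0.55, mt-Atp6 at -0.35 and mt-Atp8 at -0.31. With total counts as library size none of these genes other than mt-Co1 was called. mt-Nd6, mt-Nd4, mt-Nd1, mt-Nd5 and mt-Co2 then stood at -0.30, -0.16, -0.07, -0.08 and -0.14 on the log2 scale, and mt-Nd2, mt-Atp6 and mt-Atp8 turned to 0.06, 0.06 and 0.10. mt-Tm, the tRNA for methionine, was the 1 gene called higher, at 1.28, 1.08, 0.588 and 1.25 scaled CPM in PCT WT and 0.345, 0.389, 0.387 and 0.685 in DCT WT. PCT WT replicate 3 lay below DCT WT replicate 4, and the log2 difference was 1.11 ± 0.42 (SE, adjusted p = 0.0383 by limma).

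Between the segments of KO kidneys, 17 of 30 mitochondrial genes were called, or 56.7%, against 40.6% of all 13834 genes. All 17 were lower in PCT, where 20.2% of all genes were called lower and 20.4% higher. They comprised 11 of 13 coding genes, both rRNAs and 4 minus-strand tRNAs, and the median log2 difference over the 30 was -0.79, against -0.04 over all genes. mt-Co1 was at 18716, 17852 and 23056 scaled CPM in PCT KO and 60003, 64471, 48350 and 50172 in DCT KO. No PCT library reached a DCT library, with a log2 difference of -1.48 ± 0.14 (SE, adjusted p = 1.25e-06 by limma).

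The other coding genes called were mt-Nd6 at -1.21, mt-Cytb at -1.14, mt-Nd5 at -1.07, mt-Nd4 at -1.01, mt-Nd4l at -0.94, mt-Nd1 at -0.86, mt-Co2 at -0.85, mt-Nd2 at -0.72, mt-Atp6 at -0.66 and mt-Co3 at -0.58 on the log2 scale. mt-Ts1 stood at -1.45, and the tRNAs mt-Tn, mt-Ty and mt-Tp at -1.23, -0.96 and -0.53. mt-Rnr2 was at -0.73 and mt-Rnr1 at -0.43, the latter turning to 0.05 with total counts as library size. Under that scaling, which moved the median of all genes to 0.44, 6 mitochondrial genes were called, all lower in PCT: mt-Co1, mt-Ts1, mt-Nd4, mt-Nd5, mt-Nd6 and mt-Cytb. The WT and KO segment comparisons share no library.

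The composition within the 13 coding genes, which no scaling between libraries touches, also separated the segments for some genes. mt-Co1 made up 29.7%, 28.8%, 27.1% and 30.7% of coding counts in PCT WT and 25.9%, 21.9% and 28.8% in PCT KO. It made up 34.7%, 39.4%, 36.4% and 33.3% in DCT WT and 35.6%, 36.5%, 33.2% and 31.3% in DCT KO, above every PCT library. mt-Nd2 moved the other way, with 4.79% ± 0.362 (SD, n = 4) in PCT WT against 3.87% ± 0.224 (SD, n = 4) in DCT WT, without overlap. mt-Atp8 also took a larger share in PCT WT, 0.777% ± 0.0693 (SD, n = 4) against 0.614% ± 0.0582 (SD, n = 4). The shares of all other coding genes overlapped between the WT segments. Shares are parts of a whole, so a larger mt-Co1 share leaves less for the other genes, and these differences are not independent.

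A direct test asked whether the knockout difference itself differed between segments. No gene was called for this interaction, 0% of 15279 and 0 of 32 mitochondrial genes, with limma, while 849 genes in all and 8 mitochondrial ones had an unadjusted p under 0.05. Of the 32, 30 had an estimate below 0, with a median of -0.49 on the log2 scale against -0.0025 over all genes. The smallest p values were those of mt-Tn at -1.45 ± 0.40 (SE, adjusted p = 0.544 by limma), mt-Te at -1.04 ± 0.35 (SE, adjusted p = 0.695 by limma) and mt-Tl1 at -1.29 ± 0.50 (SE, adjusted p = 0.762 by limma). Among the coding genes mt-Nd5 was at -0.60 ± 0.26, mt-Nd4l at -0.57 ± 0.26 and mt-Co1 at -0.54 ± 0.23 (SE).

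Nuclear genes that maintain, transcribe and process the mitochondrial genome were examined as 3 lists. Of 29 genes for mitochondrial DNA upkeep and transcription, none was called in either knockout comparison, with 20 of 29 above 0 in DCT and a median of 0.15. Ppargc1a, a coactivator that promotes mitochondrial biogenesis, was at 69.0 ± 5.51 scaled CPM in DCT WT and 89.2 ± 12.7 in DCT KO (SD, n = 4), which gave a log2 difference of 0.37 ± 0.13 (SE, adjusted p = 0.670 by limma). The summed level of this list was 130.1 to 139.1 scaled CPM in DCT WT and 141.6 to 180.7 in DCT KO, without overlap, and much of that sum was Ppargc1a. Without Ppargc1a the other 28 genes summed to 59.9 to 66.0 scaled CPM in DCT WT and 64.5 to 81.0 in DCT KO, and the groups overlapped.

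Between segments the shares of these lists called higher in PCT were near or below those of all genes, 23.6% in WT and 20.4% in KO. The shares called lower ran from 0% to 5%, against 25.1% of all genes in WT and 20.2% in KO. In WT, 7 of the 29 upkeep and transcription genes were called higher in PCT, or 24.1%. The 1 called lower, where 25.1% of all genes were, was Ppargc1a, at 38.9 ± 4.18 scaled CPM in PCT WT (SD, n = 4) and a log2 difference of -0.84 ± 0.11 (SE, adjusted p = 5.94e-06 by limma). In KO, 5 were higher, or 17.2%, and 1 lower, again Ppargc1a, at -1.50 ± 0.18 (SE, adjusted p = 1.22e-05 by limma). Of 39 tested genes for mitochondrial RNA processing, modification and decay, 8 were called higher in both WT and KO, or 20.5% in each, while 1 was called lower in WT and 0 in KO. Lrpprc, which stabilises mitochondrial messenger RNAs, was at 34.4 ± 2.38 scaled CPM in PCT WT and 18.3 ± 4.50 in DCT WT (SD, n = 4), which gave a log2 difference of 0.93 ± 0.15 (SE, adjusted p = 9.19e-05 by limma).

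Of the 20 mitochondrial aminoacyl-tRNA synthetases, which load tRNAs with their amino acids, 3 were called higher in PCT and 1 lower in WT, and 4 higher and 0 lower in KO. The shares called higher, 15% and 20%, and those called lower, 5% and 0%, were below those of all genes. Rars2, for arginine, was at 5.31 ± 0.347 scaled CPM in PCT WT and 2.15 ± 0.190 in DCT WT (SD, n = 4), which gave a log2 difference of 1.29 ± 0.18 (SE, adjusted p = 1.98e-05 by limma). Its own tRNA, mt-Tr, had 0 to 7 counts per library. Lars2, for leucine, stood apart from the rest of the list with 6051 ± 269 scaled CPM in PCT WT and 5114 ± 1258 in DCT WT (SD, n = 4). By contrast, Iars2, for isoleucine, was at 11.4 ± 1.14 in PCT WT (SD, n = 4). Whether all reads counted as Lars2 came from its messenger RNA was not tested. In the knockout comparisons none of the 39 or 37 tested processing genes and none of the 20 synthetases was called.

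The authors' deposited table of their own test gave similar values for the knockout comparisons. For DCT it held no mitochondrial gene at an adjusted p under 0.05. An adjusted p was given there for only 20 of the 37, so the rest had no such result. The lowest adjusted p in the authors' deposited table was 0.0868, for mt-Nd4l with a log2 fold change of 0.54, followed by 0.135 for mt-Nd4 with 0.41. For PCT, where 32 of the 37 had one, the lowest adjusted p of a mitochondrial gene in the authors' deposited table was 0.448, for mt-Tn. Cldn10 stood at a log2 fold change of -12.2 in the authors' deposited table for PCT, so negative values there are lower in KO. The signs matched those of the limma differences for 29 of 29 mitochondrial genes in PCT, on the same counts. For DCT the authors' deposited table had Cldn10 at 0.036 (p = 0.974), which does not show the direction of that table. Its signs as deposited equalled those of the limma KO minus WT differences for 30 of 30 mitochondrial genes.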

How the data were processed

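RNA of 15 tubule pools was sequenced after column extraction and Nextera XT library preparation, per the labels. The submitters' processing notes name CASAVA 1.8, STAR 2.5, DESeq2 1.24.0 and the build GRCm38. No counting program, annotation release or strand setting is named in the labels or headers. The deposited table holds whole-number counts per gene, the authors' raw counts. Its layout was not recognised as counts by the format check, so its unit was recorded as other and limma 3.58.1 (R 4.3.3) was used, with voom weights on log2 CPM and a prior count of 0.5. The authors' deposited log2 fold changes and p-values served only for comparison.

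Symbols came from GENCODE M21, which gave 54723 of 54752 identifiers a symbol. Sequences came from its GRCm38 transcripts, and nuclear copies were sought with blastn 2.17.0. Each comparison was fitted on its own groups, the interaction on all 15 libraries. Genes needed about 10 counts in a number of libraries equal to the smaller group, and 15 in total. Scale factors trimmed 30% of log ratios and 5% of intensities. On simulated data for DCT, the method called 72 of 100 genes changed 2-fold, 96 of 100 changed 4-fold and 4 of 12768 unchanged genes. The simulated spread was set beforehand, not estimated from these libraries. Changes under 2-fold were not simulated, so recovery of smaller differences is unknown.

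The members, pathway lists and marker lists were chosen with earlier results of these data known. Mitochondrial genes were described library by library where they were called, had 1 of the 3 smallest p in a knockout comparison or had groups that did not overlap, and up to 3 genes of smallest p could be named per list. Replicates correlated at 0.959 to 0.982 (Pearson r of log2 values), and none was a copy. Alternatives were other scalings, filters, weights, fits, a replicate block and each library left out.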

Additional observations from a re-analysis of the deposited data

Results flagged for a closer look

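In groups of 4 libraries, a library was marked when its gap to the nearest other library, divided by the range of the group, passed Dixon's critical value of 0.829. This was applied to 183 sets of values, and chance marks about 1 in 20. The 14 marked sets share libraries and are not independent.

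PCT WT replicate 3 was low for mt-Nd1 (6582 scaled CPM, others 9457 to 9887), mt-Nd4 (6075, others 10457 to 10573), mt-Nd4l (1113, others 1876 to 2018) and mt-Ty (1.42, others 2.12 to 2.18). PCT WT replicate 6 was high for mt-Tf (0.978, others 0.785 to 0.796). DCT WT replicate 2 was low for mt-Co2 (11360, others 13858 to 14242), and DCT WT replicate 4 was high for mt-Tm (0.685, others 0.345 to 0.389).

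DCT KO replicate 8 was high for mt-Nd4l (3948 scaled CPM, others 2928 to 3059), mt-Tl1 (2.75, others 1.44 to 1.63), mt-Tc (5.49, others 3.52 to 3.81) and mt-Tl2 (0.254, others 0.0995 to 0.116). In the same library mt-Co2 made up 10.9% of coding counts (others 9.08 to 9.18%). DCT KO replicate 5 was high for mt-Nd5 (11532, others 9980 to 10175), and DCT KO replicate 7 was low for mt-Te (9.28, others 11.1 to 11.5).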

How the results depend on the processing

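In each of the 5 comparisons some alternative moved a count. In PCT the knockout comparison called 14 genes with total counts as library size, 80 with no filter, 36 with a stricter filter, 40 with sample quality weights, 123 with 1 fit of all 15 libraries and 46 at an adjusted p under 0.1, and 2 to 18 with a library left out, but 0 mitochondrial genes in each of these. In DCT no filter gave 4 genes, 2 of them mitochondrial. Between segments in WT, 8 mitochondrial genes were called with total counts, 6 with limma-trend and 8 to 13 with a library left out, the lowest without DCT WT replicate 3. In KO, 6 were called with total counts and 25 with nuclear protein-coding counts as library size, against 18 for the latter in WT, where that scaling moved the median of all genes to -0.29 (KO -0.43). With total counts mt-Nd2 turned to 0.062, mt-Atp6 to 0.061 and mt-Atp8 to 0.097 in WT, and mt-Rnr1 to 0.052 in KO. Over the alternatives, values of the named genes kept their direction and call 195 times and lost the call 49 times in WT, and 266 and 39 times in KO. The interaction called 1 gene with no filter, 10 with limma-trend, 2 without PCT WT replicate 6 and PCT KO replicate 7, and 0 to 1 with a library left out. Deviations of same-numbered libraries from their group means correlated at r of -0.02, -0.06 and 0.05 in WT, and -0.13 and -0.27 in KO. Differently numbered libraries ran from -0.11 to 0.12 in WT and from -0.12 to 0.31 in KO. So few pairs cannot decide whether a shared number marks the same animal. With the replicate block 8 mitochondrial genes were called in WT and 6 in KO, where 3238 genes were called in all. Per count outside the mitochondrial genome, mitochondrial genes had 2.66, 2.59, 3.96 and 4.36 counts in PCT WT, PCT KO, DCT WT and DCT KO. The causes were not tested. With so few counts no difference was detectable for the lowest tRNAs, and Cldn10 did not check the DCT labels.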
